A study of Mus musculus with 24 samples.

Results

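The genes described here carry sodium, chloride, and water across the alveolar epithelium. They are 9 of the 55421 Ensembl mouse genes in the count table and were taken by symbol, whatever their values: Scnn1a, Scnn1b, and Scnn1g, Cftr, Slc12a2, Atp1b1, Aqp1, Aqp3, and Aqp4. AEC2s, the surfactant-secreting cells of the alveolus, were isolated from Krt8+/+ mice (labelled WT) and from Krt8-/- mice (labelled KO), which lack keratin 8 in every cell type. RNA was taken from fresh cells (D0, day 0) and after 1, 3, and 7 days (D1, D3, and D7) of 2D culture on a stiff surface, with no further agent in either genotype. The sample titles carry 3 dates, taken here as dates of isolation, although the titles do not say what was done on them. They give 8 groups of 3 libraries and 24 libraries with total counts of 10184439 to 19483386. No source used here gives the age or number of the mice behind a library, and p values measure the spread between isolations only. Values are CPM (counts scaled to the library total with edgeR's TMM factors), and differences are on the log2 scale.

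The alveolus is kept nearly dry by active salt transport. Sodium enters the epithelial cell from the air space through apical channels, of which ENaC is the best known, and the sodium pump in the basolateral membrane moves it out again, so that water follows. Chloride passes through channels such as CFTR, while the cotransporter NKCC1, encoded by Slc12a2, loads chloride into cells from the blood side and supports secretion. Aquaporins are water channels, of which Aqp5 is the one best known from AEC1s, the flat cells that AEC2s give rise to.

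Of the 9 genes, 7 had fallen by day 7 in each genotype and Scnn1g alone had risen. In Krt8+/+ AECs, Cftr fell by 6.86 on the log2 scale, Slc12a2 by 3.76, and Atp1b1 by 3.01, while Scnn1g rose by 2.72 and Scnn1a and Scnn1b lost less than 1 log2 unit. Aqp4 was not counted at all on day 7. None of the genes passed the test between Krt8-/- and Krt8+/+ AECs on any day. Among all 18046 genes tested, 30.2% were lower and 28.6% higher on day 7 than on day 0 in Krt8+/+ AECs, and 29.9% and 28.6% in Krt8-/- AECs. The median difference of the 9 genes was -2.16 in Krt8+/+ and -2.97 in Krt8-/- AECs, against 0 and 0.0024 over all genes tested.

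All 9 genes passed the filter on low counts. Atp1b1 had 202455 counts over the 24 libraries, and Aqp3 and Aqp4 had only 392 and 451, so statements about the last 2 rest on few reads. The targeted gene, Krt8, was at 523 ± 34.7 CPM (SD, n = 3) on day 0 and 4027 ± 1067 CPM on day 7 in Krt8+/+ AECs, and at 29.5 ± 7.73 and 30.2 ± 4.23 CPM in Krt8-/- AECs. The 10 AEC2 marker genes, Sftpc among them, summed to between 234300 and 311900 CPM in the 6 libraries of day 0 and to between 276 and 417 CPM on day 7, so the cells labelled alveolar epithelial carried little AEC2 message by then. The 10 AEC1 marker genes summed to between 3819 and 4916 CPM on day 0 and to between 3517 and 5623 CPM on day 7, with 8 higher and 1 lower in Krt8+/+ and 7 higher and 2 lower in Krt8-/- AECs. On day 1 the AEC2 sum of isolation 2 was 15330 CPM for Krt8+/+ and 14500 CPM for Krt8-/-, against 64360 to 89850 CPM in the other isolations. In isolation 1, 4 Y-linked genes summed to between 173 and 191 CPM in Krt8-/- and to at most 0.44 CPM in Krt8+/+ libraries, while in isolations 2 and 3 both genotypes were alike.

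**Figure D1:**
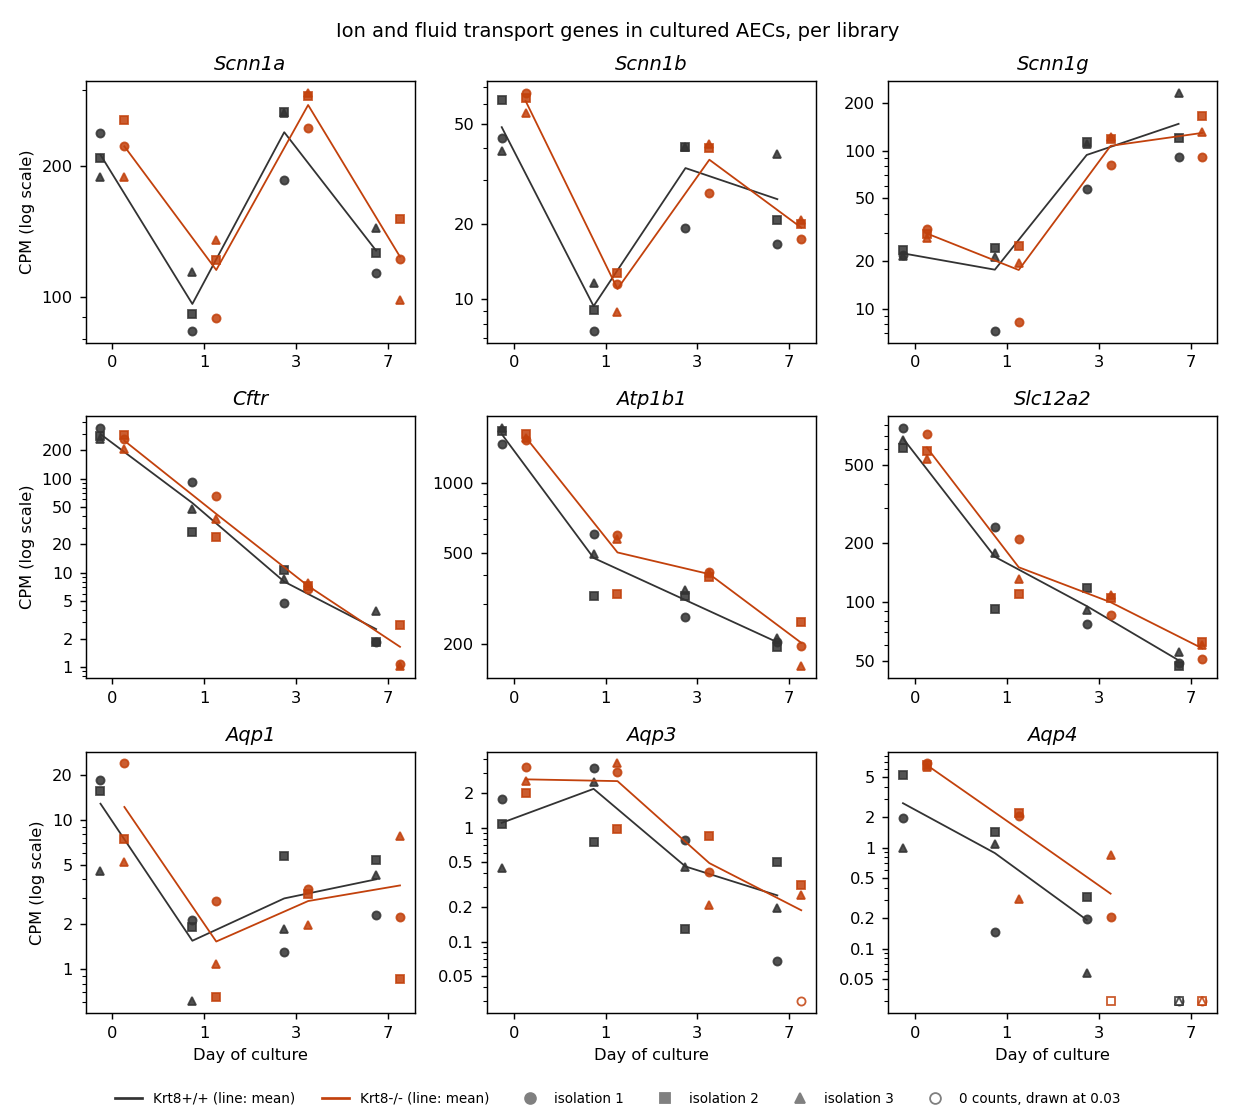
Level of each gene in each library by day of culture, in CPM on a log axis whose range differs between panels; gray is Krt8+/+, orange is Krt8-/-, symbols are isolations, lines join group means above 0, and open symbols at 0.03 are libraries with 0 counts. Cftr, Slc12a2, and Atp1b1 fall from day to day by mean, and Scnn1g ends highest on day 7. Scnn1a and Scnn1b dip on day 1 and rise again by day 3, Scnn1b to a mean below that of day 0.

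Proximal promoters are shown for 4 of the genes, since they fall into the opposite courses of the data: Scnn1g, which rose, Scnn1b, its neighbour, which fell, and Cftr and Atp1b1, which fell by more than 3 log2 units by day 7 in Krt8+/+ AECs. Scnn1g and Scnn1b lie on the same strand of chromosome 7, 96.6 kb apart. Each sequence is the 250 bases before the RefSeq start site (GRCm38.p6), 5′ to 3′ on the gene's strand, with matches to the GC box GGGCGG on either strand in capitals.
Scnn1g, chr7:121734229-121734478, + strand: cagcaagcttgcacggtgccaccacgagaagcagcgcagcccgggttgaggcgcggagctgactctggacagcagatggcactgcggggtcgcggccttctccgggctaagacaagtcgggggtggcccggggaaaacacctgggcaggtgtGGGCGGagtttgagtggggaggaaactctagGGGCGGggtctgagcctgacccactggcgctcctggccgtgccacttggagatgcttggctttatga
Scnn1b, chr7:121864788-121865037, + strand: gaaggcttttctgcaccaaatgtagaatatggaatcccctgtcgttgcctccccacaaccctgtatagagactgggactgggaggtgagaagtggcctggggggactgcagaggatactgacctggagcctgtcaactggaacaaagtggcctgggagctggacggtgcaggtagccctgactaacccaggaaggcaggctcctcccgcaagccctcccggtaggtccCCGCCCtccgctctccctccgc
Cftr, chr6:18170437-18170686, + strand: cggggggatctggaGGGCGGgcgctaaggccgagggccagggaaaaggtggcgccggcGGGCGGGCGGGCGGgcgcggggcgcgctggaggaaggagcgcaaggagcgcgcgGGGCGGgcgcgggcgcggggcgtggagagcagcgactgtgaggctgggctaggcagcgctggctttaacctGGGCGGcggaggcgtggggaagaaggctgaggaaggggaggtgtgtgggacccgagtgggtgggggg
Atp1b1, chr1:164458356-164458605, - strand: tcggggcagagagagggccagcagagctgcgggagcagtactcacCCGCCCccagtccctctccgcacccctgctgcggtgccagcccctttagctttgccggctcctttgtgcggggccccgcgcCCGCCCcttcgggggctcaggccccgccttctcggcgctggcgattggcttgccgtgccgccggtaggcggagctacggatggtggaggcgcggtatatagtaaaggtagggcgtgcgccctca

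A RefSeq promoter was used for 6 of the 9 genes (also Aqp1 and Aqp3), and none for Scnn1a, Slc12a2, or Aqp4. For the 9 genes, promoters on chromosome 18, where Slc12a2 and Aqp4 lie, were left out of the search. GGGCGG, the letters bound by SP factors, was found in all 6, once each in Scnn1b, Aqp1, and Aqp3, with 2 matches in Scnn1g, 2 in Atp1b1, and 6 in Cftr, of which 3 overlap. It was found in 32.7% of all 32851 promoters of this length, and the 6 promoters were 60.8% to 76.4% G or C against a median of 52.4%. CAAGTG, a core recognised by NKX2-1, had 1 match, in Scnn1g, and is held by 11.6% of promoters. TGANTCA, the AP-1 motif, had no match in the 6 and is held by 6.70% of promoters. The genes that rose and fell thus share the GC box. Neighbouring Scnn1g and Scnn1b differ in GC boxes (2 against 1), in G or C (65.2% against 60.8%), and in the CAAGTG match. The part of these sequences in the courses was not tested.

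ENaC is built from an alpha, a beta, and a gamma subunit, encoded by Scnn1a, Scnn1b, and Scnn1g. Alpha is the subunit without which the channel conducts little, and beta and gamma raise its activity at the membrane. Scnn1a (ENSMUSG00000030340, chr6:125320659-125344943 of GRCm38) had Krt8+/+ values of 239, 209 and 189 CPM in isolations 1 to 3 on day 0, 83.7, 91.6 and 114 CPM at D1, 186, 267 and 265 CPM at D3 and 113, 126 and 144 CPM at D7. The groups of days 0 and 1 did not overlap, nor did those of days 1 and 3 or 3 and 7, while days 0 and 3 overlapped. The Krt8-/- values were 222, 256 and 189 CPM at D0, 89.5, 122 and 135 CPM at D1, 246, 289 and 295 CPM at D3 and 122, 151 and 98.3 CPM at D7. The course thus had the same shape in both genotypes. The first step was a fall of 1.14 ± 0.19 (SE) in Krt8+/+ (edgeR quasi-likelihood test, adjusted p = 4.38e-05), the next a rise of 1.31 ± 0.19 (adjusted p = 4.77e-05), and the last a fall of 0.90 ± 0.19 (adjusted p = 0.00462, and 0.156 without isolation 2).

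Scnn1b (ENSMUSG00000030873, chr7:121865038-121918514) also fell to day 1 and rose to day 3, at a lower level. Its Krt8+/+ values were 44.0, 62.7 and 39.2 CPM at D0, 7.48, 9.10 and 11.6 CPM at D1, 19.2, 40.5 and 40.5 CPM at D3 and 16.7, 20.6 and 38.0 CPM at D7. Libraries of Krt8-/- AECs held 66.6, 63.7 and 55.3 CPM at D0, 11.5, 12.7 and 8.86 CPM at D1, 26.4, 40.2 and 41.5 CPM at D3 and 17.4, 19.9 and 20.7 CPM at D7. Day 1 held the lowest libraries of both genotypes, with no overlap with day 0 or day 3. From day 0 to day 1 it fell by 2.37 ± 0.31 in Krt8+/+ and by 2.49 ± 0.31 in Krt8-/- AECs, and by day 3 it had risen by 1.83 ± 0.31 and 1.71 ± 0.30. Against day 0, day 7 was lower by -0.95 ± 0.29 in Krt8+/+ AECs (adjusted p = 0.00877) and by -1.68 ± 0.30 in Krt8-/- AECs (adjusted p = 6.58e-05). The Krt8+/+ value turned on the isolation: it was -0.54 without isolation 2 (adjusted p = 0.29) and -1.51 without isolation 3. From day 3 to day 7 its change did not pass: it was -0.41 ± 0.29 in Krt8+/+ AECs (adjusted p = 0.491) and -0.90 ± 0.30 in Krt8-/- AECs, with an adjusted p of 0.0555 there, but 0.0317 with isolation as a block and 0.0274 with DESeq2.

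Scnn1g (ENSMUSG00000000216, chr7:121734479-121768475) took another course. Its Krt8+/+ values were 22.0, 23.7 and 21.6 CPM at D0, 7.26, 24.4 and 21.4 CPM at D1, 57.5, 114 and 111 CPM at D3 and 90.9, 121 and 232 CPM at D7. Its values in Krt8-/- libraries were 32.1, 29.6 and 28.1 CPM at D0, 8.24, 25.1 and 19.5 CPM at D1, 81.1, 118 and 123 CPM at D3 and 90.7, 167 and 131 CPM at D7. Every library of days 3 and 7 lay above every library of days 0 and 1, and on day 1 isolation 1 was the low one in both genotypes. Day 7 exceeded day 0 by 2.72 ± 0.43 in Krt8+/+ (adjusted p = 1.64e-05) and by 2.11 ± 0.42 in Krt8-/- AECs (adjusted p = 0.000204). The rise lay between days 1 and 3 (2.41 ± 0.43 and 2.60 ± 0.43), and neither the change from day 3 to day 7 (0.65 ± 0.40 and 0.27 ± 0.40) nor that from day 0 to day 1 passed the threshold. From day 0 to day 1, the difference was -0.34 ± 0.42 in Krt8+/+ AECs, and 0.02 without isolation 1, while in Krt8-/- AECs it was -0.76 ± 0.41, with an adjusted p of 0.134, or 0.0179 with isolation as a block.

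Levels of different genes were compared only per kb of exon. Scnn1a held 66.5% ± 4.64 (SD, n = 3) of the summed ENaC level per kb in Krt8+/+ AECs on day 0, Scnn1b 23.7% ± 4.54, and Scnn1g 9.75% ± 0.817. On day 7 Scnn1a held 36.4% ± 7.89, Scnn1b 10.4% ± 0.839, and Scnn1g 53.2% ± 7.07, which made gamma the most abundant subunit message. In Krt8-/- AECs the share of Scnn1g was 11.6% ± 1.08 on day 0 and 53.2% ± 6.68 on day 7. The summed level was 77.4 ± 8.19 CPM per kb at D0, 32.8 ± 6.89 at D1, 102 ± 26.4 at D3, and 89.9 ± 32.8 at D7 in Krt8+/+ AECs, so that day 1 was the low point and days 0 and 7 differed by less than the spread between libraries. In Krt8+/+ AECs the ratio of Scnn1g to Scnn1a per kb was 0.146 at D0 and 1.48 at D7, against 0.187 and 1.42 in Krt8-/- AECs (geometric means). Groups did not overlap, and the exact 2-sided permutation test gave p = 0.1 in each genotype, the smallest that 3 libraries against 3 allow (0.18 after adjustment over 9 ratios). The ratio of Scnn1b to Scnn1a was 0.353 on day 0 and 0.29 on day 7 in Krt8+/+ (exact permutation p = 0.5) and 0.439 and 0.248 in Krt8-/- AECs (exact permutation p = 0.1).

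**Figure D2:**
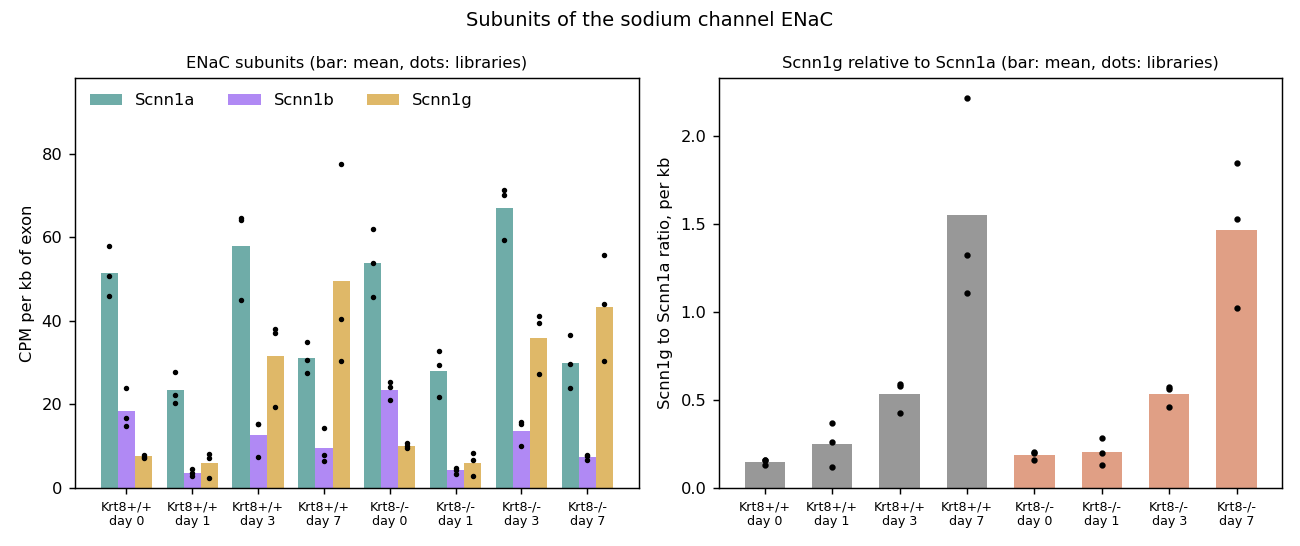
Left, level of the ENaC subunit genes in CPM per kb of exon; right, ratio of Scnn1g to Scnn1a per kb; bars are means of 3 libraries and dots are libraries, by genotype and day. Scnn1g passes Scnn1a on day 7 in both genotypes, where their ratio was 1.48 in Krt8+/+ and 1.42 in Krt8-/- AECs (geometric means).

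Cftr, which encodes the chloride channel mutated in cystic fibrosis, changed most among the well-counted genes. Cftr (ENSMUSG00000041301, chr6:18170687-18322768) had Krt8+/+ values of 343, 283 and 264 CPM at D0, 91.1, 27.1 and 47.3 CPM at D1, 4.78, 10.7 and 8.67 CPM at D3 and 1.84, 1.82 and 3.91 CPM at D7. Its Krt8-/- libraries held 261, 288 and 209 CPM at D0, 65.6, 24.2 and 36.9 CPM at D1, 6.71, 7.29 and 7.74 CPM at D3 and 1.09, 2.80 and 1.02 CPM at D7. No 2 days overlapped in either genotype. Day 7 was below day 0 by -6.86 ± 0.52 in Krt8+/+ (adjusted p = 9.46e-10) and by -7.31 ± 0.54 in Krt8-/- AECs (adjusted p = 6.58e-10), and each of the 3 steps passed the threshold in each genotype. The last step, -1.66 ± 0.47 in Krt8+/+ and -2.19 ± 0.50 in Krt8-/- AECs, was the least secure: its adjusted p was 0.036 and 0.00607, but 0.0514, 0.214, and 0.135 without isolation 1, 2, or 3 in Krt8+/+ and 0.153 without isolation 3 in Krt8-/- AECs. Airway ionocytes are rich in Cftr. Of 4 ionocyte markers, Foxi1 had 0 counts in all 24 libraries, Atp6v1b1 had 12 counts in Krt8+/+ and 21 in Krt8-/- AECs on day 0 and 0 on the other days, Ascl3 had group means of at most 0.86 CPM, and Atp6v0d2 went from 4.66 ± 3.62 CPM on day 0 to 44.7 ± 53.5 on day 7 in Krt8+/+ AECs. The 4 summed to between 2.47 and 9.21 CPM on day 0 and to between 0.662 and 104 CPM on day 7. In Krt8+/+ AECs the mean sum of day 7, 44.8 CPM, was nearly all Atp6v0d2. There the sum was 104, 29.4, and 0.662 CPM in isolations 1 to 3, beside 194, 50.7, and 6.89 CPM for 6 macrophage markers. The part of the ionocyte markers in the Cftr values was not tested. Cftr shares 129 exon bases with the antisense gene Gm15592, which had 16 counts in all.

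Slc12a2 (ENSMUSG00000024597, chr18:57878678-57946821), which encodes NKCC1, had Krt8+/+ values of 770, 611 and 668 CPM at D0, 240, 91.6 and 178 CPM at D1, 77.2, 117 and 90.5 CPM at D3 and 48.6, 46.9 and 55.2 CPM at D7. The Krt8-/- values were 716, 590 and 533 CPM at D0, 210, 109 and 131 CPM at D1, 85.2, 105 and 108 CPM at D3 and 51.0, 62.3 and 59.9 CPM at D7. Day 0 stood above and day 7 below all other days, and days 1 and 3 overlapped in Krt8+/+ AECs, with isolation 2 low on day 1. Day 7 was below day 0 by -3.76 ± 0.29 in Krt8+/+ (adjusted p = 1.29e-09) and by -3.41 ± 0.29 in Krt8-/- AECs (adjusted p = 3.97e-09). More than 2 log2 units of this were lost by day 1 in each genotype (-2.01 ± 0.27 and -2.03 ± 0.27). In Krt8+/+ AECs the later steps were -0.84 ± 0.26 from day 1 to day 3 (adjusted p = 0.0232) and -0.92 ± 0.26 from day 3 to day 7 (adjusted p = 0.0393). They depended on the isolations: the former was -0.37 without isolation 1 (adjusted p = 0.315), -1.31 without isolation 2, and -0.77 without isolation 3 (adjusted p = 0.213), and the latter had adjusted p values of 0.168 without isolation 2 and 0.216 without isolation 3. Neither passed in Krt8-/- AECs (adjusted p = 0.107 and 0.0618), though the former did without isolation 2 (adjusted p = 0.0259) and the latter with DESeq2 (adjusted p = 0.0271).

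Atp1b1 encodes beta 1 of the sodium pump, the subunit that brings the pump to the membrane. Atp1b1 (ENSMUSG00000026576, chr1:164437109-164458355, minus strand) had the highest mean of the 9 genes per kb on every day in Krt8+/+ AECs, although Scnn1g was above it in 1 library of day 7. Its Krt8+/+ values were 1482, 1690 and 1736 CPM at D0, 604, 323 and 494 CPM at D1, 264, 325 and 344 CPM at D3 and 204, 194 and 213 CPM at D7. Libraries of Krt8-/- AECs held 1547, 1634 and 1580 CPM at D0, 596, 331 and 575 CPM at D1, 410, 391 and 408 CPM at D3 and 197, 251 and 161 CPM at D7. Day 0 and day 7 overlapped with no other day, and on day 1 isolation 2 was low in both genotypes. Day 7 was below day 0 by -3.01 ± 0.23 in Krt8+/+ (adjusted p = 9.70e-10) and by -2.97 ± 0.23 in Krt8-/- AECs (adjusted p = 1.15e-09). The step from day 1 to day 3 was -0.61 ± 0.21 in Krt8+/+ AECs (adjusted p = 0.0385), but -0.29 without isolation 1 (adjusted p = 0.488) and -0.66 without isolation 3 (adjusted p = 0.161), and it did not pass in Krt8-/- AECs (adjusted p = 0.3, and 0.0498 without isolation 2). From day 3 to day 7 it was -0.61 ± 0.21 in Krt8+/+ (adjusted p = 0.0951, but 0.0428 with DESeq2 and 0.0204 in the fit of the 6 libraries) and -0.99 ± 0.21 in Krt8-/- AECs (adjusted p = 0.00388, and 0.0716 and 0.153 without isolation 1 or 3). The difference between the genotypes' courses did not pass its own test (unadjusted p = 0.502). Atp1b1 shares 575 exon bases with Nme7 on the other strand, which had 5204 counts in all.

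For Cftr, Slc12a2, and Atp1b1, the low libraries of day 1 were those of isolation 2, the isolation with the low AEC2 marker sum given above. The part of the AEC2 markers in these values was not tested. In bulk RNA, fewer cells of a type and less message per cell cannot be told apart.

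Aqp1, the water channel of endothelium and mesothelium as well as of red cells, was low and variable. Aqp1 (ENSMUSG00000004655, chr6:55336432-55348555) had Krt8+/+ values of 18.4, 15.6 and 4.54 CPM at D0, 2.13, 1.92 and 0.61 CPM at D1, 1.31, 5.76 and 1.87 CPM at D3 and 2.31, 5.39 and 4.31 CPM at D7. Its values in Krt8-/- libraries were 23.9, 7.49 and 5.25 CPM at D0, 2.87, 0.648 and 1.09 CPM at D1, 3.43, 3.19 and 1.97 CPM at D3 and 2.23, 0.856 and 7.84 CPM at D7. Isolation 3 was the lowest of day 0 in both genotypes. The fall by day 1 passed in each genotype (-3.05 ± 0.81, adjusted p = 0.00356, and -3.02 ± 0.82, adjusted p = 0.00435). On day 7 against day 0 it missed (-1.69 ± 0.76, adjusted p = 0.0614, and -1.74 ± 0.76, adjusted p = 0.0543), and passed with DESeq2 (adjusted p = 0.0407 and 0.0326), with no filter (adjusted p = 0.0372 and 0.0308), and without isolation 3 (adjusted p = 0.0331 and 0.00492). The 10 endothelial markers summed to between 29.7 and 47.2 CPM on day 0, 6.84 and 15.99 on day 1, and 3.58 and 6.82 on day 7. Of 4 mesothelial markers, Upk3b went from 61.6 ± 29.7 to 2.34 ± 1.01 CPM between days 0 and 1 in Krt8+/+ AECs. Msln went from 34.8 ± 23.1 to 255 ± 87.1 CPM there. The sum of the 4 on day 0 was 205, 113, and 66.3 CPM for Krt8+/+ in isolations 1 to 3. For Krt8-/- it was 201, 137, and 92.3 CPM, the order of Aqp1 in both genotypes. That order was not particular to mesothelial markers. On day 0 the endothelial sum was 38.87, 33.23, and 29.65 CPM for Krt8+/+ in isolations 1 to 3. It was 47.23, 36.12, and 34.04 CPM for Krt8-/-. Sums of fibroblast and macrophage markers also fell from isolation 1 to 3 in both genotypes on day 0, while the AEC2 sum rose. In Krt8+/+ AECs the mean mesothelial sum was 128.1, 282.7, 942.3, and 1468 CPM on days 0, 1, 3, and 7. Aqp1 means were 12.83, 1.552, 2.981, and 4.001 CPM, so both rose after day 1. The day 7 sum, between 987 and 1872 CPM, was nearly all Msln (1462 ± 446 CPM). Between days 0 and 7, 1 of the 4 markers was called higher and 3 lower there, against 1 and 2 in Krt8-/- AECs. Upk3b was at 1.396 CPM on day 7 in Krt8+/+ AECs. Lrrn4 went from 28.94 to 5.016 CPM and Wt1 from 2.794 to 0.7469 CPM there. The 5 erythroid markers, for red cells, summed to at most 5.87 CPM on day 0 and 7.74 CPM on any day. The part of these markers in the Aqp1 values was not tested.

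Aqp3, which also passes glycerol and is known from basal cells, was at most at 3.65 CPM. Aqp3 (ENSMUSG00000028435, chr4:41092722-41098183, minus strand) had Krt8+/+ values of 1.78, 1.08 and 0.443 CPM at D0, 3.30, 0.751 and 2.51 CPM at D1, 0.786, 0.13 and 0.453 CPM at D3 and 0.068, 0.497 and 0.199 CPM at D7. Its Krt8-/- libraries held 3.38, 2.02 and 2.55 CPM at D0, 3.05, 0.972 and 3.65 CPM at D1, 0.411, 0.843 and 0.211 CPM at D3 and 0, 0.311 and 0.255 CPM at D7. Days 0 and 1 overlapped, and isolation 2 was the low one of day 1, as for the AEC2 genes. The fall lay between days 1 and 3, -2.25 ± 0.80 in Krt8+/+ (adjusted p = 0.0433) and -2.34 ± 0.80 in Krt8-/- AECs (adjusted p = 0.0383). Without isolation 1, 2, or 3 its adjusted p was 0.101, 0.107, or 0.212 in Krt8+/+ AECs, and in Krt8-/- AECs it was 0.164 without isolation 1 and 0.343 without isolation 3. Day 7 was below day 0 by -3.82 ± 0.89 in Krt8-/- AECs (adjusted p = 0.00103) and by -2.16 ± 0.88 in Krt8+/+ AECs (adjusted p = 0.0404, 0.0523 with isolation as a block). The Krt8+/+ value was -1.14 without isolation 1 (adjusted p = 0.385) and -2.38 without isolation 3 (adjusted p = 0.114).

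Aqp4, a water channel of the basolateral membrane in airway cells, was counted in 17 of 24 libraries. Aqp4 (ENSMUSG00000024411, chr18:15389496-15410982, minus strand) had Krt8+/+ values of 1.97, 5.30 and 0.996 CPM at D0, 0.147, 1.42 and 1.09 CPM at D1 and 0.197, 0.324 and 0.0567 CPM at D3. The Krt8-/- values were 6.83, 6.58 and 6.33 CPM at D0, 2.06, 2.20 and 0.311 CPM at D1 and 0.206, 0 and 0.844 CPM at D3. On day 7 it had 0 counts in all 6 libraries, after 89 counts over the Krt8+/+ and 242 over the Krt8-/- libraries of day 0. With a floor of 3 counts over a group, day 7 was at least 36.5-fold lower in Krt8+/+ and at least 101-fold lower in Krt8-/- AECs, counting error only. Apart from these bounds, the edgeR test of day 7 against day 0 gave adjusted p = 0.000401 and 7.02e-05. Neither the step from day 0 to day 1 nor that from day 1 to day 3 passed in either genotype, although in Krt8-/- AECs the former did with isolation as a block (adjusted p = 0.0431) or no filter (adjusted p = 0.0402) and the latter without isolation 3 (adjusted p = 0.0372).

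**Figure D3:**
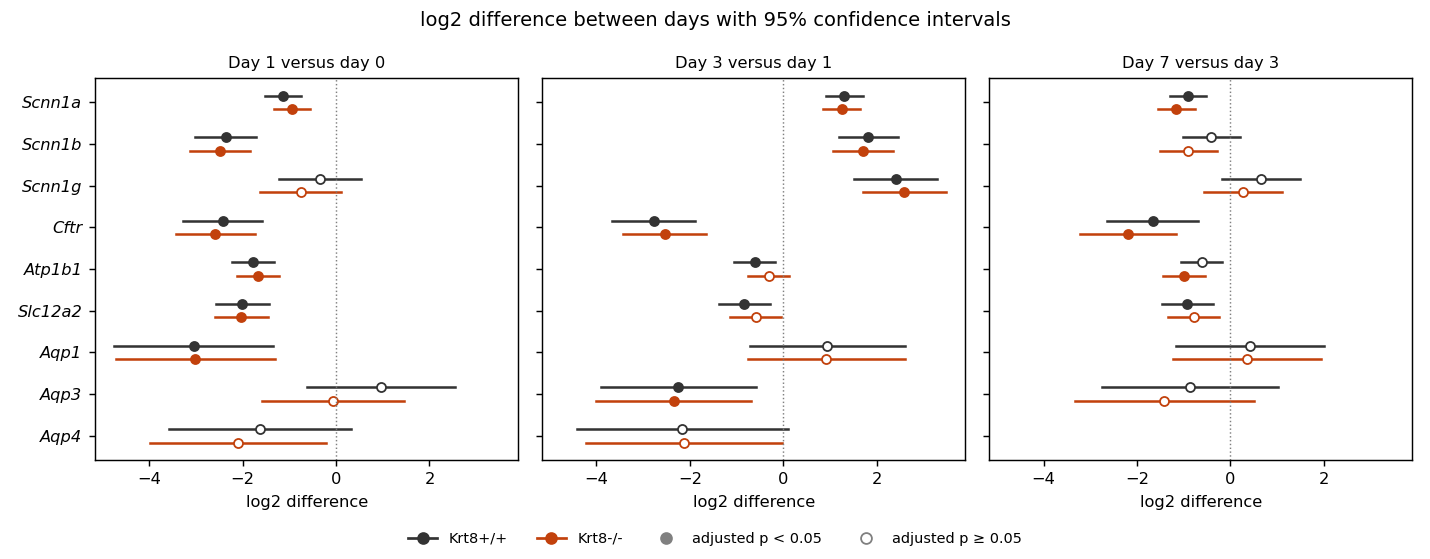
Difference between successive days in log2 units with 95% confidence intervals for each gene, gray for Krt8+/+ and orange for Krt8-/- AECs; filled points passed an adjusted p of 0.05, and Aqp4 is left out of the last panel because it had 0 counts on day 7. No filled point lies right of 0 from day 0 to day 1, the ENaC genes lie right of 0 from day 1 to day 3, and filled points lie left of 0 again from day 3 to day 7.

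Counted by step, 6 of the 9 genes were lower on day 1 than on day 0 in each genotype and none was higher, against 28.5% and 26.2% of all genes tested in Krt8+/+ and 26.9% and 23.7% in Krt8-/- AECs. Those not called were Scnn1g, Aqp3, and Aqp4. From day 1 to day 3 the 3 ENaC genes rose in each genotype, against 14.4% and 13.4% of all genes, while 4 genes fell in Krt8+/+ (Cftr, Slc12a2, Atp1b1, and Aqp3) and 2 in Krt8-/- AECs (Cftr and Aqp3), against 11.9% and 10.2%. From day 3 to day 7, 3 genes fell in Krt8+/+ (Scnn1a, Slc12a2, and Cftr) and 3 in Krt8-/- AECs (Scnn1a, Atp1b1, and Cftr), against 3.47% and 6.15% of all genes, and none rose, against 3.11% and 4.40%. The last count in Krt8+/+ AECs was 0 without isolation 2 and 1 without isolation 3, and in Krt8-/- AECs it was 1 without isolation 3.

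Per kb, the order on day 0 in Krt8+/+ AECs was Atp1b1 (531 ± 44.0 CPM per kb), Slc12a2 (62.5 ± 7.35), Scnn1a (51.4 ± 6.02), Cftr (38.2 ± 5.32), Scnn1b (18.5 ± 4.72), Scnn1g (7.502 ± 0.374), Aqp1 (4.88 ± 2.78), Aqp3 (0.602 ± 0.365), and Aqp4 (0.442 ± 0.362). Slc12a2 and Scnn1a, Scnn1g and Aqp1, and Aqp3 and Aqp4 stood within their summed spread of each other. On day 7 the order was Atp1b1 (66.1 ± 3.16), Scnn1g (49.4 ± 24.8), Scnn1a (31.0 ± 3.78), Scnn1b (9.53 ± 4.297), Slc12a2 (4.60 ± 0.399), Aqp1 (1.52 ± 0.594), Cftr (0.325 ± 0.155), Aqp3 (0.139 ± 0.12), and Aqp4, with Scnn1g not separated from Atp1b1 or Scnn1a, nor Cftr from Aqp3, by more than that spread. By mean, Cftr thus ranked below Aqp1 on day 7.

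Over the 24 libraries, which share 8 groups and follow the day of culture, Atp1b1, Slc12a2, and Cftr went together (Pearson r of log2 CPM 0.982 for Atp1b1 and Slc12a2, 0.961 for Cftr and Slc12a2). Scnn1a went with Scnn1b (r = 0.824) and much less with Scnn1g (r = 0.332), which ran against Cftr (r = -0.777). The 2 genes with the most similar course were Gramd2 and Gata6 for Scnn1a (r = 0.931 and 0.911), Tspan2 and Limd2 for Scnn1b (both 0.941), Plb1 and Cd276 for Scnn1g (0.959 and 0.957), 5330417C22Rik and Lgi3 for Cftr (0.988 and 0.987), Tc2n and Pon3 for Atp1b1 (0.992 and 0.991), and Atp8a1 and Afap1l1 for Slc12a2 (0.990 and 0.988). For the aquaporins they were Nup214 and Pi4ka for Aqp1 (0.864 and 0.862), Krt15 and Colec11 for Aqp3 (0.918 and 0.895), and Pi16 and Tctex1d4 for Aqp4 (0.934 and 0.932). These are descriptions of courses over time.

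Of 76 other genes of the pathway, 67 were tested. On day 7 against day 0, 16 were higher and 31 lower in Krt8+/+ AECs, and 15 and 34 in Krt8-/- AECs, against 28.6% higher and 30.2% lower of all genes tested in Krt8+/+ and 28.6% and 29.9% in Krt8-/- AECs, with medians of -0.43 and -0.73. Among 11 pump subunits and FXYD regulators, 3 were higher and 7 lower in Krt8+/+ and 1 and 7 in Krt8-/- AECs, against those shares of all genes. Fxyd5, a pump regulator also called dysadherin, went from 3.06 ± 2.47 to 51.6 ± 6.34 CPM (log2 difference 3.996 ± 0.62, adjusted p = 1.25e-05), and Fxyd2, the gamma subunit, from 8.00 ± 2.66 to 0.0945 ± 0.0338 CPM (-6.26 ± 0.67, adjusted p = 1.08e-07).

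Of 14 regulators of ENaC, 3 were higher and 7 lower on day 7 in Krt8+/+ and 5 and 7 in Krt8-/- AECs. Among all genes tested, 28.6% were higher and 30.2% lower in Krt8+/+ and 28.6% and 29.9% in Krt8-/- AECs. Sgk1, the kinase that keeps ENaC at the membrane, was at 12.6 ± 7.11 CPM at D0, 379 ± 198 at D1, 181 ± 13.8 at D3, and 271 ± 6.37 at D7 (day 7 against day 0, 4.40 ± 0.44, adjusted p = 4.26e-08), and at 15.1 ± 4.69 and 269 ± 19.7 CPM on days 0 and 7 in Krt8-/- AECs. Wnk1, a kinase of chloride and sodium transport, rose by 0.95 ± 0.18 (adjusted p = 0.000154). Tmprss4, a membrane protease that can activate ENaC, went from 104 ± 12.8 to 0.355 ± 0.267 CPM (-8.22 ± 0.71, adjusted p = 5.58e-09), and Bpifa1, a secreted airway protein that restrains ENaC, from 92.4 ± 70.6 to 0.0453 ± 0.0785 CPM (-10.67 ± 1.44, adjusted p = 2.24e-06). Thus the kinase was at its highest mean on day 1, when ENaC messages were at their lowest sum.

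Of 9 receptors that act on fluid transport, 1 was higher and 5 lower in Krt8+/+ and 1 and 6 in Krt8-/- AECs. The shares of all genes were 28.6% higher and 30.2% lower in Krt8+/+ and 28.6% and 29.9% in Krt8-/- AECs. Adora2b, an adenosine receptor, fell by 4.17 ± 0.48 (adjusted p = 2.70e-07) and Nr3c2, the mineralocorticoid receptor, by 2.12 ± 0.42 (adjusted p = 0.000204). Of 17 other chloride and bicarbonate transporters, 6 were higher and 6 lower in Krt8+/+ and 5 and 6 in Krt8-/- AECs, beside 28.6% and 30.2% of all genes in the former. Ano1, a calcium-gated chloride channel, went from 93.3 ± 13.8 CPM on day 0 to 670 ± 155 on day 3 and 499 ± 36.3 on day 7 (day 7 against day 0, 2.42 ± 0.21, adjusted p = 5.51e-09), as Cftr fell. The bicarbonate cotransporter Slc4a7 rose by 1.74 ± 0.22 (adjusted p = 1.01e-06), while its relative Slc4a5 fell by 6.22 ± 0.92 (adjusted p = 7.04e-06). Slc26a4, the anion exchanger pendrin, went from 34.9 ± 0.891 to 0.068 ± 0.118 CPM (adjusted p = 1.19e-05), and in Krt8-/- AECs from 2112 counts to 0, at least 882-fold lower by the floor used for Aqp4.

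Of 13 other sodium and potassium transporters, 3 were higher and 5 lower in Krt8+/+ and 3 and 7 in Krt8-/- AECs, beside the same shares. Slc34a2, the phosphate transporter of AEC2s and one of the AEC2 markers, went from 14980 ± 624 CPM on day 0 to 28.3 ± 33.6 on day 1 and 0.538 ± 0.472 on day 7 (-14.67 ± 1.37, adjusted p = 1.59e-08). Among potassium channels, Kcnn4 rose by 3.91 ± 0.63 (adjusted p = 2.06e-05) and Kcnk1 by 1.44 ± 0.24 (adjusted p = 2.46e-05), and Kcnj15 fell by 7.65 ± 0.77 (adjusted p = 4.39e-08). Of 3 other aquaporins tested, 0 were higher and 1 was lower in each genotype, beside the same shares. In Krt8+/+ AECs the lower one was Aqp5. It was at 698 ± 152 CPM at D0, 177 ± 45.6 at D1, 204 ± 67.8 at D3, and 102 ± 36.0 at D7 in Krt8+/+ AECs (-2.77 ± 0.27, adjusted p = 3.59e-08).

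Between genotypes, none of the 9 genes passed on any day, against 0.0277% of all genes on day 0 and 0.0166% on days 1, 3, and 7, and none of them at an unadjusted p under 0.05, by edgeR with or without the block or by DESeq2. The genotype by day interaction likewise called 0 of 9 (0 at an unadjusted p under 0.05 by each of the 3), against 0.00554% of all genes. The intervals show what remains possible. On day 0, Krt8-/- minus Krt8+/+ was 0.06 for Scnn1a (95% interval -0.32 to 0.45), -0.04 for Atp1b1 (-0.48 to 0.39), -0.16 for Slc12a2 (-0.70 to 0.38), and -0.23 for Cftr (-1.03 to 0.57). On day 7 it was -0.05 for Scnn1a (-0.44 to 0.34), -0.19 for Scnn1g (-1.02 to 0.64), -0.38 for Scnn1b (-0.99 to 0.24), -0.01 for Atp1b1 (-0.45 to 0.43), 0.20 for Slc12a2 (-0.35 to 0.75), and -0.68 for Cftr (-1.81 to 0.44). Scnn1a and Atp1b1 had the narrowest intervals, all within 0.814 of 0, while those of Aqp1 on day 0 ran from -1.59 to 1.44. For Atp1b1 on day 3 the difference was 0.374 (-0.0653 to 0.814). Without isolation 1, whose libraries differed in Y-linked genes between genotypes, the count was again 0 on each day.

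**Figure D4:**
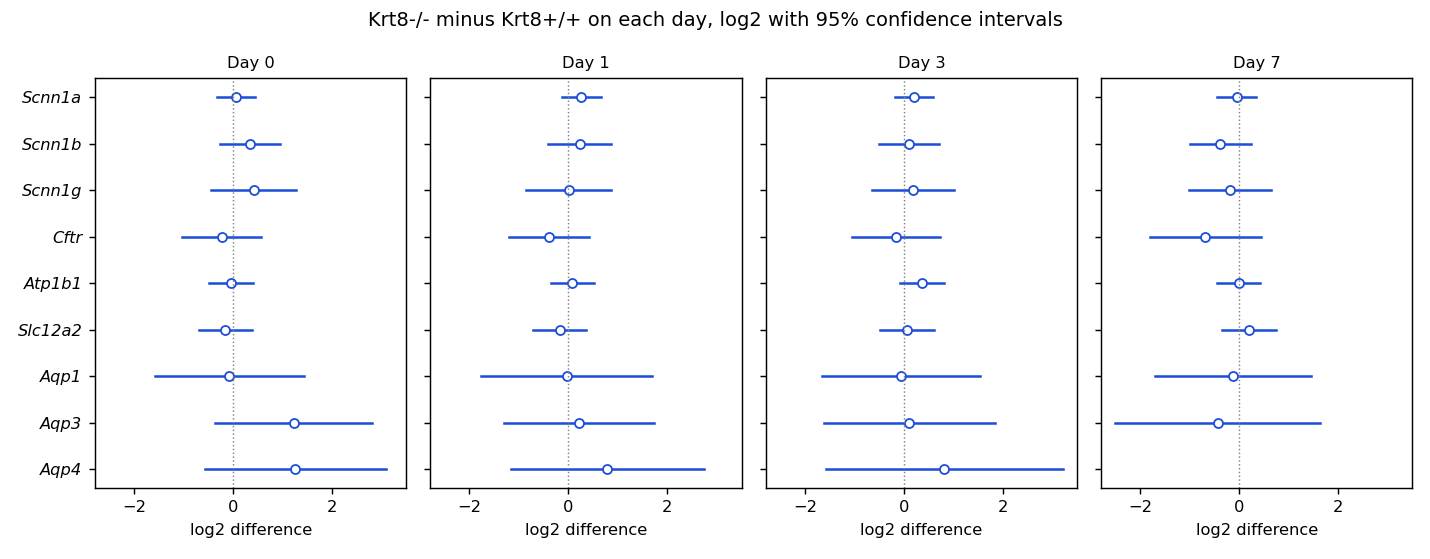
Krt8-/- minus Krt8+/+ on each day in log2 units with 95% confidence intervals; all points are open because none passed an adjusted p of 0.05, and Aqp4 has no value on day 7, when it had 0 counts in both genotypes. Each interval crosses 0, and those of Aqp1, Aqp3, and Aqp4 are the widest.

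The largest differences on day 0 were those of Aqp4, 1.26 (-0.57 to 3.09), and Aqp3, 1.23 (-0.36 to 2.81). Scnn1g was at 0.42 (-0.44 to 1.28) and Scnn1b at 0.35 (-0.26 to 0.95). Their unadjusted p values by the edgeR quasi-likelihood test were 0.164, 0.121, 0.324, and 0.244. Each was higher in Krt8-/- AECs in 3 of 3 isolations, and the share of all genes for which that held was not computed. The summed level of 6 club and ciliated cell markers was also higher in each Krt8-/- library of day 0, at 14230, 14500, and 19600 CPM, against 5810, 11930, and 6369 CPM in Krt8+/+ libraries. The club cell gene Scgb1a1 made up most of the sum (12940 ± 2946 against 5975 ± 2821 CPM), while the ciliated factor Foxj1 was at 77.95 ± 25.5 against 67.1 ± 36.1 CPM, and none of the 6 passed. The Krt8+/+ library with the highest sum, of isolation 2, also had the most Aqp4 (5.30 CPM), but Aqp3 was highest in isolation 1 (1.78 CPM). The 4 basal markers summed to between 8.34 and 12.2 CPM in fresh Krt8-/- AECs and to between 0.664 and 3.25 CPM in those of Krt8+/+ mice, most of it Krt15 (8.89 ± 1.78 against 1.00 ± 0.573 CPM), while the defining factor Trp63 was at 0.259 ± 0.292 against 0.814 ± 0.709 CPM and none of the 4 passed. The part of these markers in the aquaporin values was not tested.

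**Figure D5:**
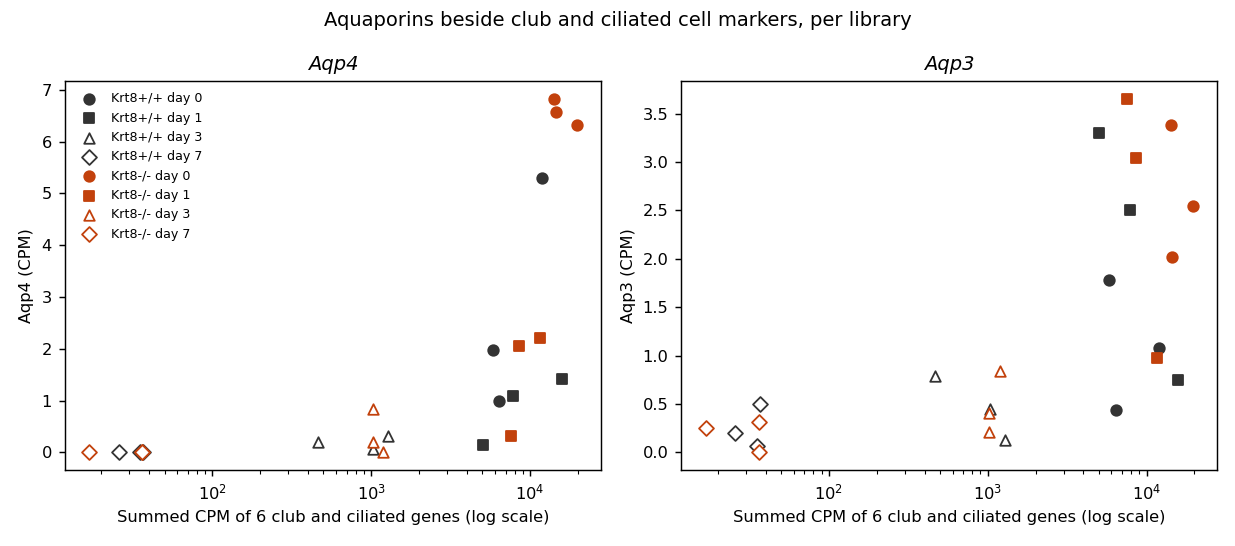
Level of Aqp4 and Aqp3 in CPM against the summed CPM of 6 club and ciliated markers on a log axis, 1 point per library, by genotype and day. The 3 Krt8-/- libraries of day 0 lie at marker sums of 14230 and above with Aqp4 between 6.33 and 6.83 CPM, and the libraries of day 7 lie at sums of 16.8 to 36.8 CPM with no Aqp4 count.

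Among the 67 other genes, 0 passed between genotypes on any day by edgeR, with 2, 4, 5, and 1 at an unadjusted p under 0.05 on days 0, 1, 3, and 7, and by DESeq2 Bpifa1 passed on day 1. Bpifa1 was at 948 ± 162 CPM in Krt8-/- against 92.4 ± 70.6 CPM in Krt8+/+ AECs on day 0 and at 247 ± 96.6 against 10.96 ± 11.1 CPM on day 1 (log2 difference 3.36 ± 0.78, adjusted p = 0.499, and 4.496 ± 0.84, adjusted p = 0.101; DESeq2 on day 1, adjusted p = 0.00562). It stands beside the club and ciliated sums above. Aqp5 was at 1180 ± 56.9 CPM in Krt8-/- against 698 ± 152 CPM in Krt8+/+ AECs at D0, 366 ± 33.7 against 177 ± 45.6 at D1, 394 ± 94.3 against 204 ± 67.8 at D3, and 131 ± 5.16 against 102 ± 36.0 on day 7. The differences were 0.76 ± 0.26, 1.05 ± 0.26, 0.95 ± 0.26, and 0.35 ± 0.26, with Krt8-/- higher in each isolation on days 0, 1, and 3 and adjusted p values of 0.903 to 1. Aqp5 and Krt8 lie 2402 kb apart on chromosome 15, and the part of that position in the Aqp5 values was not tested.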

How the data were processed

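RNA was measured in AEC2s and cultured AECs of 24 libraries. The authors deposited raw counts per gene, whole numbers with no normalization, for 55426 entries, of which 5 are reporter genes with 0 counts. Per the labels, GRCm38, cutadapt 2.3, STAR 2.7.8a, and RSEM 1.3.3 were used, so the counts may be rounded estimates, and no source used here gives the strand setting. Symbols, coordinates, and exon lengths came from GENCODE M21, which named 55154 identifiers, and promoters from RefSeq (GRCm38.p6).

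In R 4.3.3, low genes were dropped by filterByExpr at a min.count of 10 and min.total.count of 15, and the rest scaled with TMM, and tested with edgeR 4.0.16 (quasi-likelihood F test, 1 model of 8 groups, 16 residual degrees of freedom, Benjamini-Hochberg over 18046 genes, threshold 0.05). Intervals are 95%. Ratios per kb were compared by exact permutation. Correlations used log2 CPM with a prior count of 2. No 2 libraries of a group were duplicates. The procedure was tested on simulated data.

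The dates taken as isolations pair the libraries, and paired deviations from group means correlated at -0.03 to 0.55. Alternatives were DESeq2 1.42.0 (size factors, test), no filter, a block for isolation, leaving each isolation out of all groups, and fits of 6 libraries. All 9 genes are named. Other pathway genes are named if, per sub-list, they had up to 2 of the largest changes each way on day 7 against day 0 in Krt8+/+ AECs past the threshold, at 1 CPM in a group and alike in 3 isolations. Hence the genotype values of Bpifa1 and Aqp5 were added after values were seen. Some genes of these lists enter the counts but are not reported here. The genes and lists were chosen with earlier results of these data known. Bounds against 0 counts use 3 counts over a group and cover counting error only.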

Additional observations from a re-analysis of the deposited data

How the results depend on the processing

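Of the 9 genes, the counts past the threshold for day 1 against day 0 and day 7 against day 0 stayed within 1.5 times under each alternative run, as did the counts of 0 between genotypes. The other steps were less stable. In Krt8+/+ AECs from day 1 to day 3, the count of 7 was 4 in the fit of the 6 libraries compared and ranged from 4 to 6 with an isolation left out. From day 3 to day 7 the count of 3 ranged from 0 to 2 there. In Krt8-/- AECs from day 3 to day 7, the count of 3 was 6 with the DESeq2 test, 6 with no filter, and 5 in the fit of the 6 libraries, and ranged from 1 to 3 with an isolation left out. Over all genes, counts in those steps fell by more than 1.5 times with an isolation left out, from 4740 to between 2614 and 3085 and from 1188 to between 325 and 572 in Krt8+/+ AECs, and from 4252 to between 1842 and 2691 and from 1903 to between 834 and 969 in Krt8-/- AECs. The cause was not tested.

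Isolation as a block changed 4 calls of single genes, given with their values above, and no count of the 9 genes by more than 1.5 times. Of 107 differences of single genes, 21 changed sign under some alternative, in 29 cases, of which 23 were between genotypes, and 0 were past the threshold. Between genotypes, with an isolation left out, the ranges were -0.0646 to 0.157 (Scnn1a), -0.0924 to 0.0054 (Atp1b1), and -0.663 to 0.334 (Aqp1) on day 0. On day 1 they were -0.0519 to 0.0943 (Scnn1g), -0.0004 to 0.148 (Atp1b1), -0.527 to 0.533 (Aqp1), and -0.04 to 0.484 (Aqp3). On day 3 they were -0.364 to 0.0777 (Cftr), -0.0326 to 0.183 (Slc12a2), -0.554 to 0.741 (Aqp1), -0.986 to 0.834 (Aqp3), and -1.34 to 1.98 (Aqp4). On day 7 they were -0.23 to 0.19 (Scnn1a), -0.549 to 0.283 (Scnn1g), -1.45 to 0.0364 (Cftr), -0.23 to 0.168 (Atp1b1), and -1.28 to 0.587 (Aqp1). Between days they were -0.535 to 0.0161 (Scnn1g, Krt8+/+, day 1 against day 0), -2.15 to 0.198 (Aqp3, Krt8+/+, day 7 against day 3), -0.451 to 0.269 (Aqp3, Krt8-/-, day 1 against day 0), and -1.07 to 0.881 (Aqp1, Krt8-/-, day 7 against day 3). The other reversals were those of Scnn1g between genotypes on day 1, at -0.0223 with DESeq2's size factors, -0.0295 with the DESeq2 test, and -0.0305 in the fit of 6 libraries, of Atp1b1 on day 7, at 0.002 with isolation as a block, and of Aqp3 in Krt8-/- AECs on day 1 against day 0, at 0.0085 in the fit of 6 libraries.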
